A study of Mus musculus with 8 samples.

Results

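The genes described here code for the subunits of RNA polymerases I, II and III. Members were the genes of the deposited table whose symbol is Polr1, Polr2 or Polr3 followed by lower-case letters only, and 28 of the 55157 genes met this rule. The RNA came from ovarian follicles of type 7 to 8, which is a stage judged by morphology. The mice were of the outbred Kunming stock and were at postnatal day 21. All mice had received pregnant mare serum gonadotropin (PMSG, a hormone with activity like that of follicle-stimulating hormone) 24 hours earlier, so no group lacked the gonadotropin. The 4 control libraries came from mice given PMSG with normal saline and the 4 melatonin libraries from mice given PMSG with melatonin. The title of the series places melatonin downstream of follicle-stimulating hormone, and the comparison asks how follicular transcripts differ when melatonin is added.

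RNA polymerase I makes the ribosomal RNA precursor, RNA polymerase II makes messenger RNA, and RNA polymerase III makes transfer RNA, 5S ribosomal RNA and other small RNAs. Each enzyme has its own pair of large catalytic subunits, and small subunits are partly shared. Growing oocytes and dividing granulosa cells are both known for high ribosome and messenger RNA production. By textbook assignment 3 members belong to polymerase I alone (Polr1a, Polr1b and Polr1e), 2 to polymerases I and III (Polr1c and Polr1d), 8 to polymerase II, 5 to all 3 enzymes (Polr2e, Polr2f, Polr2h, Polr2k and Polr2l) and 10 to polymerase III. Polr2m, counted with polymerase II, codes for GDOWN1, a protein that associates with the enzyme. Some polymerase I and III subunits are named otherwise in the table (Cd3eap, Znrd1, Twistnb and Crcp) and were taken as a related list.

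Expression is given as FPKM (fragments divided by exon length in kilobases and by the library total), so that levels can be set side by side between genes but are not amounts per cell. The depth implied by the values was 17451111 to 22034312 fragments for control and 18553187 to 23649205 fragments for melatonin libraries. Members rested on 266 to 6286 fragments per library. At each member's mean fragment number over the 8 libraries, the counting error alone is 1.47% to 5.30% of the level. The follicle label fitted its markers. All 6 granulosa markers and all 7 oocyte markers had a mean of at least 1 FPKM, with summed levels of 6922 to 8664 and 269 to 432 FPKM in control and of 5898 to 6562 and 258 to 341 in melatonin libraries. Summed theca markers (4) were at 37.7 to 48.7 and 16.6 to 41.5 FPKM, endothelial ones (3, Tek below 1 FPKM) at 4.75 to 7.60 and 3.95 to 5.29, leukocyte ones (4, Ptprc and Cd3e below 1 FPKM) at 4.99 to 11.1 and 3.92 to 7.99, and erythroid ones (4) at 66.5 to 1541 and 122 to 478 FPKM. Their part in the results below was not tested. In such bulk samples fewer cells of a type and less RNA per cell cannot be told apart.

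Upstream sequences are shown for the 2 genes with the highest positive differences, Polr3g and Polr3gl, and for a pair of polymerase II genes with negative ones, Polr2m and Polr2a, of which Polr2m had the smallest p of the members and Polr2a codes for the largest subunit. They are RefSeq sequence of GRCm38.p6, on the minus strand, read 5′ to 3′ up to the base before the RefSeq start. In Polr2a the stretch stops 4 bases short of that start, where an annotated exon begins. The stretches are chr13:81711014-81711263 for Polr3g, chr3:96594182-96594431 for Polr3gl, chr9:71485984-71486233 for Polr2m and chr11:69758638-69758883 for Polr2a. For Polr2m the RefSeq start lies outside the GENCODE M21 gene, which begins at 71485935 on this strand. Where a gene had several RefSeq windows, the window with the highest coordinates was printed. Capitals mark matches, on either strand, to the motifs searched.
Polr3g: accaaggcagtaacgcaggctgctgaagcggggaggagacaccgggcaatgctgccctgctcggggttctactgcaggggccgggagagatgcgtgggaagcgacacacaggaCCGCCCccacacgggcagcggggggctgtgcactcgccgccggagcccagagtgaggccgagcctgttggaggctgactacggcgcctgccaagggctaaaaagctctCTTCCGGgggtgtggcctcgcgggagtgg
Polr3gl: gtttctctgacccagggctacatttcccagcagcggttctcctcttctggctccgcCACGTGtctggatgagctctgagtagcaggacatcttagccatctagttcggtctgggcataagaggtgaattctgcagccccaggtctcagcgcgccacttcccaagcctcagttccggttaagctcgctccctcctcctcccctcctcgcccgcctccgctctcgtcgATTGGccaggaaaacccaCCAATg
Polr2m: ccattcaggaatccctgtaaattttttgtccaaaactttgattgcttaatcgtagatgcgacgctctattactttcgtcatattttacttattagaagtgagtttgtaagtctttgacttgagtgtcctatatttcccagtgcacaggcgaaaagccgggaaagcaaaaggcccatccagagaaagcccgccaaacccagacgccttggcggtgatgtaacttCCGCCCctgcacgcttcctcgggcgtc
Polr2a: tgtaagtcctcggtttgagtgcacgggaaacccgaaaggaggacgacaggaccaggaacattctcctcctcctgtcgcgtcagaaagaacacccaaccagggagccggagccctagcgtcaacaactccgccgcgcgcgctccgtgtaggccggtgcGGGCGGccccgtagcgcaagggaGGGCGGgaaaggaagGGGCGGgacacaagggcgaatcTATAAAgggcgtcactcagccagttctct
The TATA box was searched as TATAAA, the second motif was CCAAT, the GC box was GGGCGG, the motif of ETS factors was CCGGAAG, that of YY1 was AAGATGGCG and the E-box was CACGTG, beside the NRF1 palindrome of 10 letters, and no motif contains another. RefSeq windows matched 22 of the 28 members, and Polr2d, Polr2g, Polr2k, Polr3a and Polr3d were among those without one. Of the 24 member windows of 250 bases before a start, 15 held the GC box, against 32.7% of all 32851 windows. The ETS motif was in 5 member windows (6.91% of all), the CCAAT box in 7 (33.8%), the TATA box in 2 (12.4%) and the E-box in 2 (6.02%). NRF1 and YY1 motifs were in 0 member windows (0.782% and 0.606% of all). Within the stretches printed, Polr3g and Polr3gl shared no motif, with a GC box and an ETS match in Polr3g and a pair of CCAAT matches and an E-box in Polr3gl. Polr2a held a TATA box and 3 GC boxes, and the printed stretch of Polr2m held a single GC box. Polr2m also had a CCAAT box, in another RefSeq window that is not printed. These matches describe letters and not occupied sites.

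All 28 members passed the filter of a mean of at least 1 FPKM, and their levels ran from 4.38 FPKM (Polr1e) to 50.7 FPKM (Polr2d), averaged over the 8 libraries. Polymerase II genes spanned from Polr2c at 9.17 FPKM to Polr2d. Polymerase III genes lay lower, from Polr3f at 4.62 to Polr3gl at 26.3 FPKM. Genes of the largest catalytic subunits followed the order Polr2a (31.7 FPKM), Polr1a (18.2) and Polr3a (10.5), and those of their partners the order Polr2b (19.4), Polr1b (10.7) and Polr3b (8.43). In every library Polr2a exceeded Polr1a and Polr1a exceeded Polr3a. Levels within a group varied by a coefficient of variation of 2.41% to 19.9% in control (median 7.47%) and 1.37% to 20.9% in melatonin (median 7.11%).

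**Figure D1:**
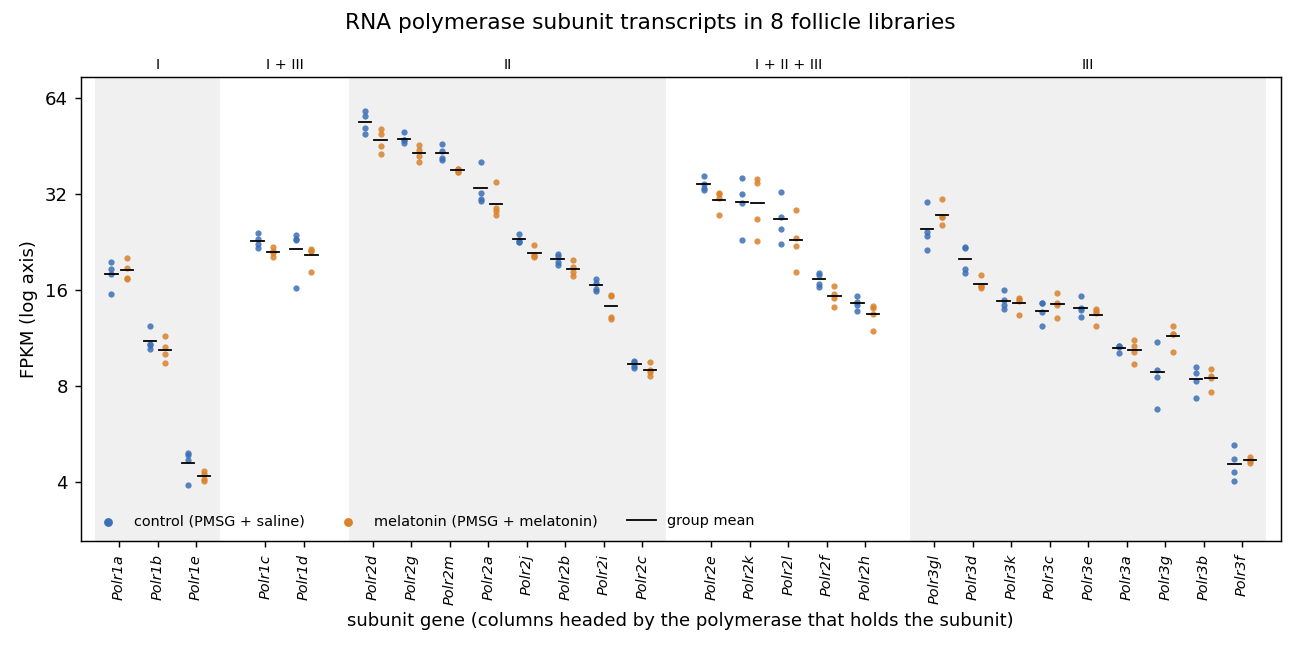
FPKM (log axis) of 27 subunit genes in each of the 4 control (blue) and 4 melatonin (orange) libraries, in columns headed by the polymerase that holds the subunit; points are libraries and black lines are group means. Polymerase II genes reach the highest levels, and in 6 genes (Polr2e, Polr2g, Polr2i, Polr2j, Polr2m and Polr3d) every melatonin point lies below every control point.

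Subunit genes of polymerase II had lower values in melatonin than in control follicles, and those of polymerase III showed no common direction, with Polr3d lower and Polr3g higher. None of these differences passed the test: limma on log2(FPKM + 1), with Benjamini-Hochberg adjustment over all 14738 tested genes, called 0 of the 28 members at an adjusted p of 0.05 and 0.0% of all genes. The smallest adjusted p among members was 0.147 (Polr2m, limma). At an unadjusted p under 0.05 there were 9 members, 8 lower and 1 higher, where 19.1% of all tested genes reached that level (9.74% lower and 9.4% higher). limma-voom, run on fragment counts recovered from the FPKM values, also called 0 members. It had 9 members at an unadjusted p under 0.05, against 2922 of all 14738 tested genes. Values were lower in melatonin for 22 of 28 members (78.6%), against 52.5% of all tested genes.

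The groups did not overlap in 6 members, all lower in melatonin, which is 21.4% of the members against 11.7% of all tested genes with 5.94% in the lower and 5.79% in the higher direction. This count depended on the processing. With GC content and length trends removed from each library it was 1 member (Polr2m), against 10.5% of genes (5.75% lower), and 4 members were at an unadjusted p under 0.05, against 17.4% of genes. After quantile normalization it was 3 members (Polr2i, Polr2m and Polr3d), against 10.2% of genes (4.71% lower), with 5 at an unadjusted p under 0.05, against 17.1% of genes. Without melatonin replicate 3 it was 11, of which 10 were lower, against 19.2% of genes (10.2% lower, and 18.5% at an unadjusted p under 0.05). Libraries also differed one from another across the members. Control replicate 3 was the highest control library for 8 and the lowest for 13 of the 28, and melatonin replicate 4 was the lowest melatonin library for 14.

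**Figure D2:**
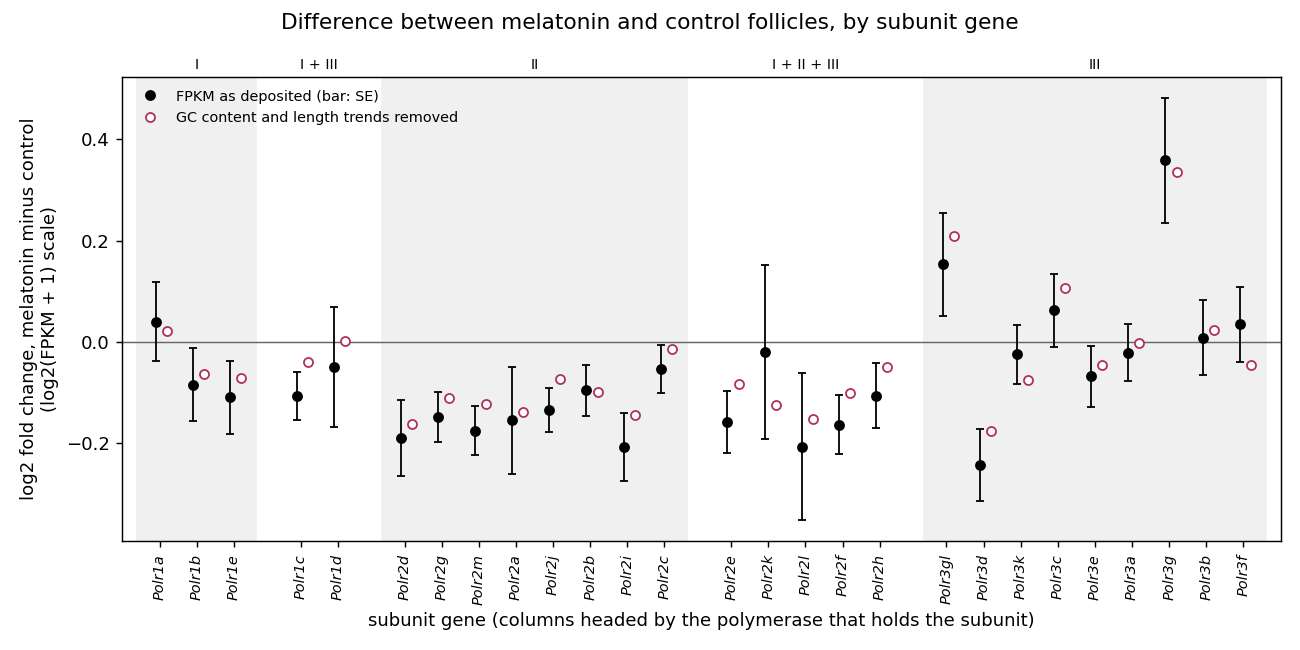
Log2 fold change, melatonin minus control, on the log2(FPKM + 1) scale for each of 27 subunit genes (black, bar: SE of the limma fit on 8 libraries) and the same after GC content and length trends were removed (open circles). All 8 polymerase II genes and all 5 genes shared by the 3 enzymes lie below 0 in both, while polymerase III genes run from -0.24 (Polr3d) to 0.36 (Polr3g).

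The groups overlapped in all 3 polymerase I genes. Polr1a, the largest catalytic subunit, was at 18.6, 18.0, 15.6 and 19.6 FPKM in control replicates 1 to 4 and at 20.2, 18.8, 17.5 and 17.3 FPKM in melatonin replicates 1 to 4. Melatonin libraries lay within the control range, apart from replicate 1 above it, with a log2 fold change of 0.040 ± 0.078 SE. Polr1b, its catalytic partner, had 12.3, 10.5, 10.9 and 10.7 FPKM in the control libraries and 10.6, 10.1, 9.43 and 11.5 in the melatonin libraries. Polr1e, an accessory subunit and the lowest of all members, had 4.86, 3.91, 4.67 and 4.92 against 4.07, 4.34, 4.23 and 4.03 FPKM, and the lowest value was a control one. The median log2 fold change of these 3 genes was -0.085, against -0.0099 for all tested genes.

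Polr1c and Polr1d code for the dimer on which polymerases I and III are assembled. Polr1c was at 24.1, 21.7, 22.3 and 23.1 FPKM in control and at 20.3, 21.8, 21.3 and 21.0 FPKM in melatonin follicles (log2 fold change -0.11 ± 0.047 SE; limma adjusted p = 0.263). Only control replicate 2 lay below a melatonin library. Removal of GC content and length trends left Polr1c at -0.041. Polr1d had 23.8, 23.0, 16.3 and 23.1 against 21.3, 21.6, 18.3 and 21.2 FPKM. In both groups replicate 3 stood below the other libraries, and Polr1d had a log2 fold change of -0.050, which was -0.17 when control replicate 3 was left out and 0.0036 when melatonin replicate 3 was.

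All 8 polymerase II genes had lower means in melatonin, by 4.04% (Polr2c) to 14.1% (Polr2i), with a median log2 fold change of -0.15 (-0.12 with GC content and length trends removed and -0.097 after quantile normalization). The mean of log2(FPKM + 1) over these genes was 4.78, 4.78, 4.87 and 4.80 in control and 4.62, 4.68, 4.74 and 4.60 in melatonin replicates 1 to 4. These ranges did not overlap on the deposited values. The same mean was not taken with GC content and length trends removed. For 5 of the 8 the unadjusted p was under 0.05, against 19.1% of all tested genes, and in 4 the groups did not overlap, against 11.7%. With GC content and length trends removed the groups stayed apart in 1 of the 8, Polr2m, against 10.5% of genes. The unadjusted p (limma) was then under 0.05 for Polr2i and Polr2m only, against 17.4% of genes.

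Polr2m, whose product GDOWN1 binds polymerase II and makes it dependent on the Mediator complex, had 41.5, 41.0, 43.8 and 46.2 FPKM in control and 37.6, 38.4, 38.5 and 37.6 FPKM in melatonin libraries. The melatonin libraries lay within 1 FPKM of one another and all below the control libraries. The log2 fold change was -0.18 ± 0.048 SE (limma adjusted p = 0.147), and -0.12 with GC content and length trends removed. It was the 1 member whose groups stayed apart under that correction.

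Polr2g and Polr2d code for the stalk of polymerase II, a dimer that binds the emerging RNA. Polr2g was at 47.4, 46.5, 50.04 and 47.4 FPKM in control and at 40.5, 45.7, 42.2 and 43.9 FPKM in melatonin (log2 fold change -0.15 ± 0.050 SE; limma adjusted p = 0.180). Its highest melatonin library was just under its lowest control library, and quantile normalization gave -0.078. Polr2d, the member of highest level, had 49.6, 56.5, 58.3 and 51.8 against 45.4, 49.6, 51.4 and 42.7 FPKM, and the groups overlapped between control replicate 1 and melatonin replicate 3 (log2 fold change -0.19 ± 0.075 SE; limma adjusted p = 0.230). Quantile normalization gave -0.11 for Polr2d. The deposited FPKM of these genes gave whole fragment counts with a length of 868 bases for Polr2g and 956 for Polr2d, where GENCODE M21 has exon lengths of 1247 and 1015, so their levels against other genes depend on the annotation used.

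Polr2i, a subunit at the jaw of the enzyme that serves start-site choice in yeast, had 16.2, 15.9, 17.4 and 16.9 FPKM in control and 13.2, 15.5, 15.3 and 13.0 FPKM in melatonin (log2 fold change -0.21 ± 0.068 SE; limma adjusted p = 0.172). Polr2j, which pairs with Polr2c in the assembly platform of polymerase II, had 23.9, 22.6, 22.7 and 23.1 against 20.5, 20.7, 22.2 and 20.4 FPKM (log2 fold change -0.14 ± 0.044 SE; limma adjusted p = 0.175). In both genes every melatonin value was below every control value. With GC content and length trends removed the log2 fold changes were -0.15 for Polr2i and -0.074 for Polr2j, and the groups overlapped in both. Polr2c had 9.61, 9.21, 9.12 and 9.50 against 8.95, 8.86, 9.55 and 8.57 FPKM, where the groups overlapped (log2 fold change -0.054 ± 0.048 SE; -0.015 with GC content and length trends removed). Polr2i and Polr2j lie across genes on the opposite strand, Tbcb (mean 30.9 FPKM) and Lrwd1 (5.51 FPKM). An overlap of gene spans, introns included, with another gene was annotated for 13 of the 28 members, for 12 of them on the opposite strand. Whether exons overlap was not examined. The use of strand in counting is not given in the sources used here, so reads from any shared exon bases cannot be assigned.

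The catalytic pair of polymerase II showed smaller separation. Polr2a, which carries the C-terminal repeat domain that is phosphorylated during transcription, was at 30.8, 32.4, 40.4 and 30.45 FPKM in control and at 28.9, 27.5, 34.9 and 28.4 FPKM in melatonin follicles. Replicate 3 was the highest library in both groups, and without melatonin replicate 3 the melatonin values all lay below the control ones. The log2 fold change was -0.16 ± 0.11 SE (limma adjusted p = 0.448), with -0.065 without control replicate 3 and -0.23 without melatonin replicate 3. Polr2b had 20.5, 19.2, 20.8 and 19.6 against 18.3, 18.9, 19.8 and 17.7 FPKM (log2 fold change -0.096 ± 0.050 SE; limma adjusted p = 0.330). Igfbp7, which overlaps Polr2b on the opposite strand, had a mean of 36.7 FPKM.

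The 5 genes shared by all 3 polymerases also had lower means in melatonin, with a median log2 fold change of -0.16 (-0.10 with GC content and length trends removed). Polr2e, which contacts downstream DNA, had 36.4, 34.4, 33.6 and 33.0 FPKM in control and 27.5, 31.1, 32.2 and 32.0 FPKM in melatonin (log2 fold change -0.16 ± 0.061 SE; limma adjusted p = 0.219). Its groups did not overlap, with melatonin replicate 1 the lowest. With GC content and length trends removed the log2 fold change of Polr2e was -0.083 and the groups overlapped. Polr2h had 14.4, 15.3, 13.8 and 14.7 against 11.9, 13.5, 14.1 and 14.3 FPKM, with overlap.

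Polr2f was at 17.3 ± 0.84 and 15.3 ± 0.97 FPKM (SD, n = 4 each), with a log2 fold change of -0.16 ± 0.058 SE (limma adjusted p = 0.193; -0.10 with GC content and length trends removed). The small zinc-binding subunit genes Polr2l and Polr2k varied most between replicates among these 5 genes. Polr2l had 26.7 ± 4.35 against 23.0 ± 4.22 FPKM and Polr2k 30.3 ± 5.46 against 29.98 ± 6.27 (SD, n = 4 each). Polr2k has a processed pseudogene, Polr2k-ps, listed at 1.06 to 3.14 FPKM, which can share its reads, so its values are uncertain.

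Polymerase III genes divided evenly, 5 with lower and 5 with higher means in melatonin, and their median log2 fold change was 0.0025. For 2 of the 10 the unadjusted p was under 0.05, Polr3d (lower) and Polr3g (higher), a share near the 19.1% of all tested genes. The catalytic pair differed little. Polr3a was at 10.6, 10.7, 10.2 and 10.6 FPKM in control and 11.1, 10.3, 10.7 and 9.40 FPKM in melatonin, and Polr3b at 8.31, 8.78, 7.36 and 9.20 against 9.02, 7.67, 8.61 and 8.50. Their log2 fold changes were -0.021 ± 0.057 and 0.0081 ± 0.075 SE.

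Polr3d, which with Polr3e forms a dimer related to the initiation factor TFIIF, had 21.7, 18.1, 21.9 and 18.7 FPKM in control and 16.5, 16.5, 17.8 and 16.3 FPKM in melatonin libraries. The groups did not overlap, although melatonin replicate 3 came close to control replicate 2. The log2 fold change of -0.24 ± 0.071 SE was the most negative of the members (limma adjusted p = 0.150), and it was -0.18 with GC content and length trends removed. Its partner Polr3e was at 14.1 ± 0.90 and 13.4 ± 0.75 FPKM (SD, n = 4 each), with a log2 fold change of -0.069 ± 0.060 SE.

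Polr3g and Polr3gl are paralogs whose products take the same place in the enzyme, in a trimer with Polr3c and Polr3f that serves initiation. Polr3g is best known from human pluripotent stem cells, and Polr3gl is widely expressed. Polr3g was at 8.96, 8.56, 6.76 and 11.0 FPKM in control and at 11.6, 11.7, 10.2 and 12.4 FPKM in melatonin replicates 1 to 4. Its melatonin mean was 30.01% above the control mean, and control replicate 4 lay above melatonin replicate 3. The log2 fold change of 0.36 ± 0.12 SE was the most positive of the members and did not pass (limma adjusted p = 0.187). It was 0.33 with GC content and length trends removed, and from 0.25 to 0.46 when each library was left out in turn.

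Polr3gl had 24.4, 23.7, 21.3 and 30.2 FPKM in control and 27.1, 27.1, 25.5 and 30.8 FPKM in melatonin (log2 fold change 0.15 ± 0.10 SE; limma adjusted p = 0.444). In both groups replicate 4 was the highest and replicate 3 the lowest library for both paralogs, and without control replicate 4 neither overlapped between groups. Polr3gl was the higher of the pair in every library. The ratio of Polr3g to Polr3gl FPKM was 0.367, 0.361, 0.317 and 0.366 in control and 0.430, 0.430, 0.401 and 0.401 in melatonin libraries, so that every melatonin ratio exceeded every control ratio (0.353 ± 0.024 and 0.416 ± 0.017, SD, n = 4 each). The difference of the paralogs in log2(FPKM + 1) had control values of -1.53 to -1.35 and melatonin values of -1.25 to -1.15. With GC content and length trends removed these ranges were -1.45 to -1.32 and -1.29 to -1.18. How often such ratios or differences separate the groups for other gene pairs was not examined. Among single genes the groups did not overlap in 11.7% of all tested genes, and Polr3g was the most positive member.

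**Figure D3:**
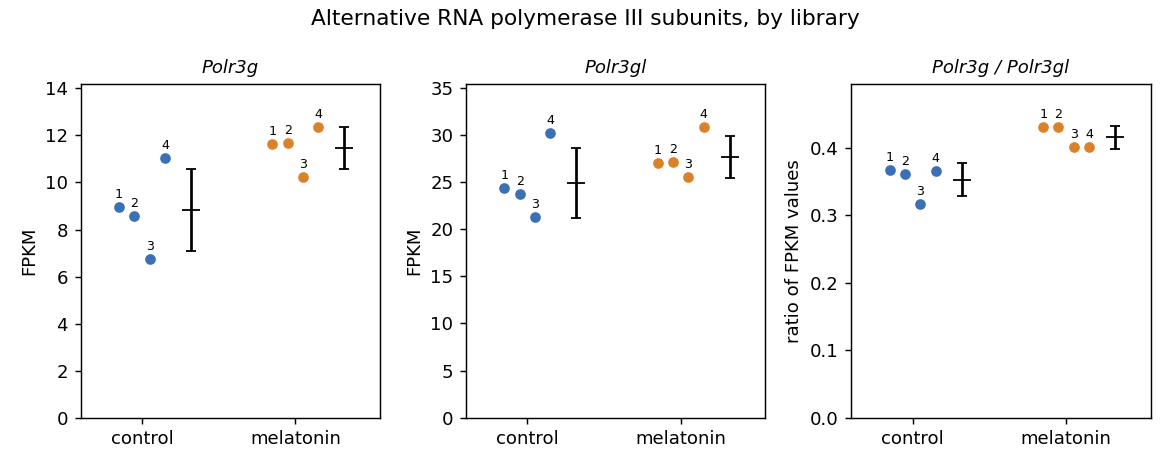
FPKM of Polr3g and Polr3gl and the ratio of their values in each library (points, numbered by replicate; bars: mean and SD, n = 4). Control replicate 4 reaches the melatonin range for both genes, while the ratio separates the groups, at most 0.367 in control and at least 0.401 in melatonin. Ratios of other gene pairs were not examined.

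The partners of that trimer showed little difference. Polr3c was at 13.8 ± 1.09 and 14.4 ± 1.07 FPKM (SD, n = 4 each). Polr3f had 5.23, 4.28, 4.01 and 4.73 against 4.78, 4.69, 4.59 and 4.65 FPKM, where the control libraries enclosed the melatonin ones. Polr3k, which serves RNA cleavage at termination, was at 14.8 ± 0.85 and 14.5 ± 0.82 FPKM (SD, n = 4 each).

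The libraries differed in GC dependence by group. Across the 14392 tested genes with annotation, which are not independent replicates, GC content and a library's deviation from the gene mean had Spearman correlations of -0.024 to 0.261 (control libraries) and -0.182 to -0.121 (melatonin libraries). Members ranged from 38.9% GC (Polr2k) to 56.6% (Polr2e), with a median of 51.1% against 49.4% for all tested genes. Across the 28 members, which share their 8 libraries, the Spearman correlation of the log2 fold change with GC content was -0.436, and -0.078 with GC content and length trends removed. That with exon length was 0.461 and stayed at 0.458. The part of GC content in each difference was not tested beyond these values.

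**Figure D4:**
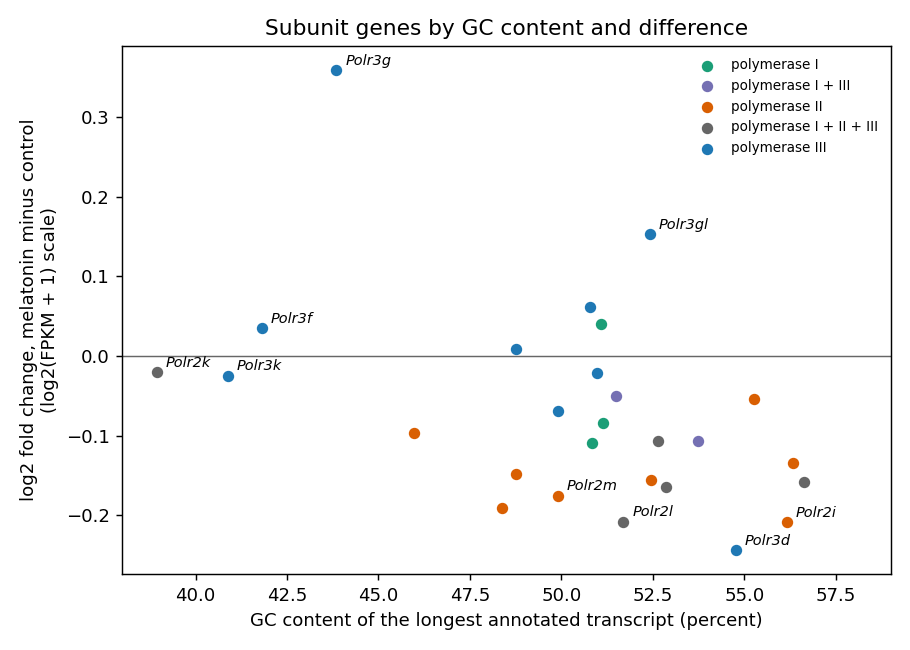
Log2 fold change, melatonin minus control, on the log2(FPKM + 1) scale against the GC content in percent of the longest annotated transcript, 1 point for each of 27 subunit genes, coloured by polymerase. Genes above 55% GC, such as Polr2i, all lie below 0, while Polr3g, at 43.8% GC, stands at 0.36.

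Related genes of the 3 systems were taken from lists, and 0 of their members passed (limma, adjusted over all genes). Among polymerase I factors 0 of 7 reached an unadjusted p under 0.05, against 19.1% of all tested genes. Ttf1, a termination factor, was at 6.41 ± 0.59 and 6.99 ± 0.26 FPKM and Taf1d, of the promoter complex SL1, at 11.7 ± 1.52 and 12.7 ± 0.46 (SD, n = 4 each). Among 4 polymerase I and III subunit genes with other names, 3 had lower and 1 a higher mean log2 value, where 52.5% of all tested genes were lower. An unadjusted p under 0.05 was reached by 0 of these 4. Cd3eap, a polymerase I subunit, was at 7.24 ± 1.18 and 6.23 ± 0.92 FPKM, and Znrd1, another, at 21.6 ± 1.43 and 20.3 ± 1.88 (SD, n = 4 each).

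Of 16 polymerase III factors, 3 reached an unadjusted p under 0.05, 2 higher and 1 lower, a share near the 19.1% of all tested genes, and the median log2 fold change was -0.016. In 2 of the 16 the groups did not overlap, a share near the 11.7% of all tested genes. Bdp1, a part of the initiation factor TFIIIB, had 7.74, 7.87, 6.60 and 7.87 FPKM in control and 9.54, 9.55, 8.60 and 10.2 FPKM in melatonin. Its groups did not overlap (log2 fold change 0.30 ± 0.071 SE; limma adjusted p = 0.132; 0.21 with GC content and length trends removed). Snapc3, of the complex that starts small nuclear RNA genes, had 7.92, 6.78, 6.98 and 5.69 against 8.91, 9.11, 8.32 and 8.49 FPKM, also without overlap (log2 fold change 0.31 ± 0.085 SE; limma adjusted p = 0.147). Of 9 listed products of polymerase III only Rn7sk, the 7SK RNA that holds the elongation kinase P-TEFb, reached a mean of 1 FPKM, with 18.1 ± 5.43 and 22.3 ± 5.46 FPKM (SD, n = 4 each). The others were below that level, with Rny3, Rpph1, Rn7s1, Rn7s2 and Rmrp listed at 0.

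Of 20 general initiation factors of polymerase II 19 were tested, since Tbpl2, the TBP paralog of mouse oocytes, was at 0.334 ± 0.11 and 0.303 ± 0.13 FPKM. An unadjusted p under 0.05 was found for 1 lower and 1 higher gene, a smaller share than the 19.1% of all tested genes. Gtf2f2, of TFIIF, was at 14.2 ± 0.73 and 12.3 ± 1.51 FPKM, and Gtf2h2, of TFIIH, at 7.65 ± 0.15 and 8.76 ± 0.29 (SD, n = 4 each). Of 26 tested pausing and elongation factors, 3 were lower and 2 higher at that level, again near the 19.1% of all tested genes. Supt16, a subunit of the histone chaperone FACT, was at 31.1 ± 0.59 and 26.7 ± 2.41 FPKM. Ccnt2, a cyclin of P-TEFb, had 17.7, 18.1, 15.5 and 17.9 FPKM in control and 22.2, 21.1, 21.9 and 24.2 in melatonin (log2 fold change 0.35 ± 0.065 SE; limma adjusted p = 0.120). Of 14 assembly factors and C-terminal domain phosphatases, 11 had lower values, against 52.5% of all tested genes. An unadjusted p under 0.05 was reached by 1, Ctdp1, a smaller share than the 19.1% of all tested genes. Ctdp1, a phosphatase of the Polr2a repeats, had 7.77 ± 0.32 and 6.87 ± 0.10 FPKM. Ssu72, another such phosphatase, had 14.1 ± 0.55 and 13.0 ± 0.51 (SD, n = 4 each). Polrmt, the RNA polymerase of mitochondria, was at 12.9 ± 0.58 and 11.5 ± 0.88 FPKM, with no overlap between groups (limma adjusted p = 0.242). The groups did not overlap in 11.7% of all tested genes.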

How the data were processed

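HISAT2 2.0.5 and mm10 are named in the submitters' processing notes. The tool that counted, its annotation and its strand setting are each not given in the sources used here. Per the file headers, the authors deposited FPKM for each gene. The series table and the 8 sample files differed in 0 cells. A filter of 1 FPKM on the gene mean left 14738 genes. R 4.3.3 with limma 3.58.1 (empirical Bayes, intensity trend) was run on log2(FPKM + 1), which understates changes of low genes, with group as the single term and Benjamini-Hochberg adjustment at 0.05. FPKM times length gave whole fragments within 0.01 for all tested genes, 13759 with GENCODE M21 exon lengths and 979 with the shortest length that made all 8 libraries whole; counts of p-values from limma-voom use these. The test was checked on simulated data. One member enters all fits and counts but is not reported here on its own. The members and lists were chosen with earlier results of these data known. Libraries carry replicate numbers but no animal, so p-values measure the spread between samples, which may be technical. Values are printed per library for catalytic subunits, Polr3g and Polr3gl, the highest and lowest member of each class and members without overlap, and for related lists the 2 genes of smallest p are named. Alternatives were quantile and median-ratio scaling, other filters, a pseudocount of 0.1, removal of GC content and length trends (splines with 5 degrees of freedom), voom, a replicate block and leaving out each library. Python 3.11.15 and matplotlib 3.10.9 drew the figures.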

Additional observations from a re-analysis of the deposited data

Results flagged for a closer look

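In groups of 4 libraries, 5 values stood apart from the rest of their group by a gap that is large against the group's range, among 56 groups checked, where chance gives about 1 in 20. Polr1d was low in replicate 3 of both groups, at 16.3 FPKM in control (next library 23.0) and 18.3 FPKM in melatonin (next 21.2). Polr2j was high in melatonin replicate 3, at 22.2 FPKM (next 20.7). Polr3d was high in melatonin replicate 3, at 17.8 FPKM (next 16.5). Polr3k was low in melatonin replicate 4, at 13.3 FPKM (next 14.8).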

How the results depend on the processing

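Over 16 alternative settings 0 subunit genes were called in each, and 20 of the 28 members kept the sign of their log2 fold change in every setting run. Over all tested genes limma called 0, and 1 without a filter on low values. The count of members without overlap, 6, was 1 with GC content and length trends removed and 3 after quantile normalization. Leaving out each library gave 6 to 11 members without overlap and 0 to 1 genes called over all genes. Groups that are apart stay apart when a library is left out, so the count without overlap could only stay or rise. Over all tested genes non-overlap was also more frequent without melatonin replicate 3, at 19.2% against 11.7% with all 8 libraries. No such share is given here for the other libraries left out. Each class median of log2 fold changes stayed within 1 SD of its value in the main fit. This SD is that of the class mean of log2(FPKM + 1) over replicates, pooled over the groups. The polymerase II median moved from -0.15 to -0.097 after quantile normalization. The sign of the polymerase III median turned in some settings, from 0.0025 to -0.0032 after quantile normalization and -0.034 without control replicate 3.

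Signs turned in members near 0, none of them called. With GC content and length trends removed the log2 fold change was 0.0023 for Polr1d and -0.047 for Polr3f. Quantile normalization gave -0.0015 for Polr3b and 0.033 for Polr2k. Leaving out each library gave -0.022 to 0.082 for Polr1a, -0.17 to 0.0036 for Polr1d, -0.053 to 0.021 for Polr3a, -0.050 to 0.014 for Polr3k, -0.048 to 0.049 for Polr3b, -0.014 to 0.091 for Polr3f and -0.14 to 0.099 for Polr2k. The cause was not tested.

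The replicate block called 0 subunit genes and 0 of all genes, with 11 members and 2776 of 14738 genes at an unadjusted p under 0.05, in place of 9 and 2821. Deviations of same-numbered libraries correlated at 0.0007, -0.10, 0.15 and 0.038, and not every library correlated best with its own number. The value for replicate 3 was the highest of all pairs of a control and a melatonin library. Correlations over all tested genes cannot settle whether the numbers pair samples or mark a shared batch. At 266 to 6286 fragments per member and library, depth limits Polr1e most, with a counting error of 5.30% at its mean fragment number.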
